A study of Mus musculus with 4 samples.

Results

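The chemokine receptors followed here are the 9 genes *Ccr1*, *Ccr2*, *Ccr3*, *Ccr7*, *Ccrl2*, *Cx3cr1*, *Cxcr2*, *Cxcr3* and *Cxcr4*, taken by symbol from the 23995 gene symbols of a deposited RNA-seq table. All 9 were found. Blood Ly6Chi and Ly6Clo monocytes of mice were sorted by flow cytometry, and each of the 4 combinations of genotype and subset gave 1 RNA-seq library. RBP-J-deficient mice (also called mutant mice) were Rbpj fl/fl Lyz2cre/cre and control mice were Rbpj+/+ Lyz2cre/cre, so both genotypes carried Cre in both alleles of *Lyz2*. The control libraries are titled WT in the deposited records, with a genotype label of Lyz2-Cre. *Lyz2* is active across the myeloid lineage, neutrophils and macrophages included, so deletion of *Rbpj* by this Cre is not limited to monocytes. The study's methods give an age range in weeks, that of young adults, for its mice, which were matched for age and sex. They do not give the age, sex or number of mice behind each RNA-seq library. With 1 library in each group no difference has a replicate check within these RNA-seq data, and no test and no p-value is given.

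Chemokine receptors are membrane proteins that couple to G proteins of the Gi class and steer leukocytes along gradients of chemokines. CCR2 binds CCL2 and related ligands and is known for releasing Ly6Chi monocytes from bone marrow and drawing them into inflamed tissue. CX3CR1 binds the membrane-bound chemokine CX3CL1 and is known as a marker of patrolling Ly6Clo monocytes, whose survival it supports. CXCR4 binds CXCL12 and holds leukocytes in bone marrow. RBP-J is the DNA-binding factor through which Notch receptors act on transcription.

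The values are FPKM, which counts the fragments of a gene per kilobase of its transcript, relative to all fragments mapped. They summed to 711555 to 885652 per library, and 8985 to 9394 genes had an FPKM of at least 1. Read counts were not used here, so depth is unknown and no counting interval can be given. The deleted gene, *Rbpj*, stood at 8.30 in the control and at 2.43 in the RBP-J-deficient library of Ly6Clo monocytes, and at 14.4 and 2.85 in Ly6Chi monocytes. The 8 genes of general monocyte identity were all above an FPKM of 1 in every library, with *Csf1r*, the receptor for colony-stimulating factor 1, between 157.8 and 406.7. In Ly6Clo monocytes 2 of the 8 were at least 2-fold lower in the RBP-J-deficient library and 1 was higher, against 11.7% and 9.51% of all genes. *Csf1r* went from 406.7 in control to 157.8, *Spi1* from 902.7 to 211.1 and *Lyz2*, which carries the Cre, from 52.0 to 133.9. A value of 0 was not read as absence of expression, since the estimate of *Actb* failed in both RBP-J-deficient libraries and was entered there as 0. None of the 9 receptors carried a failed estimate.

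*Ccr2* and *Cx3cr1* together made up most of the receptor RNA in every library. In control Ly6Clo monocytes *Cx3cr1* was the highest receptor, with 52.4% of the summed FPKM of the 9 genes, and *Ccr2* followed with 35.2%. In RBP-J-deficient Ly6Clo monocytes the order was turned, with 82.1% for *Ccr2* and 14.1% for *Cx3cr1*. *Ccr2* held 85.8% and 86.1% in control and RBP-J-deficient Ly6Chi monocytes. The summed FPKM was 168.3 in control Ly6Clo, 576.9 in RBP-J-deficient Ly6Clo, 829.1 in control Ly6Chi and 725.1 in RBP-J-deficient Ly6Chi monocytes. FPKM is scaled per length, so these levels can be set side by side between genes. *Ccrl2* was the third-ranked receptor in both Ly6Clo libraries and *Ccr1* in both Ly6Chi libraries. *Cxcr4* and *Cxcr2* came next after *Ccrl2* in all 4 libraries, *Cxcr4* ahead in Ly6Clo and *Cxcr2* ahead in Ly6Chi monocytes. Without replicates, neighbours in this order with close values, such as *Cxcr4* at 2.84 and *Cxcr3* at 2.78 in control Ly6Chi monocytes, cannot be ranked.

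**Figure D1:**
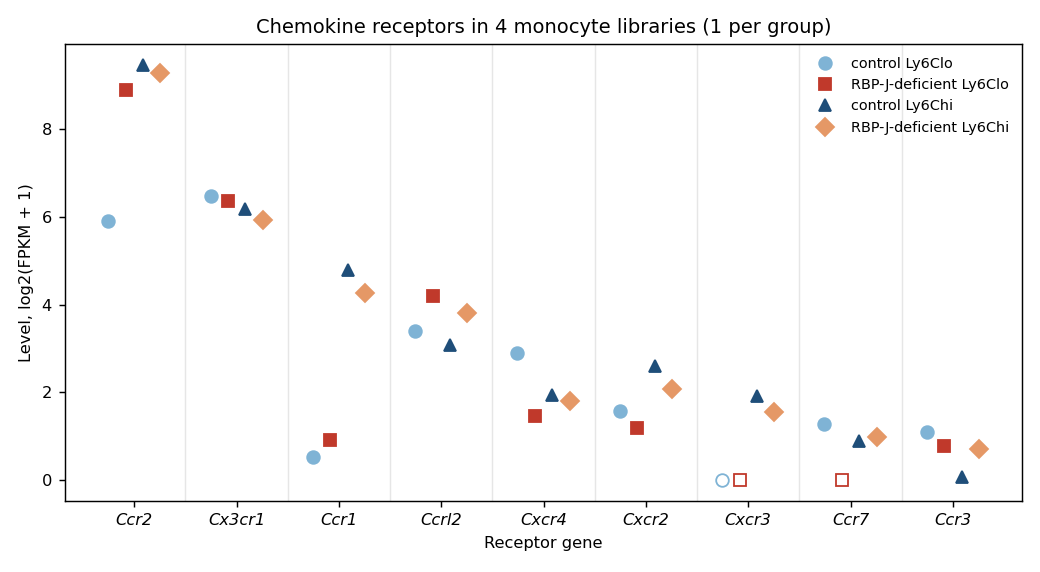
Level of the 9 receptors as log2(FPKM + 1), with 1 point per library, no error bars since each group is a single library, and open points for values listed at 0. The *Ccr2* point of RBP-J-deficient Ly6Clo monocytes, at an FPKM of 473.7, lies near the Ly6Chi points and away from control Ly6Clo at 59.2, while the 4 points of *Cx3cr1* lie between FPKM values of 60.3 and 88.1.

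*Ccr2*, the receptor for CCL2, had the largest genotype difference in FPKM of the 9 receptors, in Ly6Clo monocytes. Its FPKM was 59.2 in control Ly6Clo, 473.7 in RBP-J-deficient Ly6Clo, 711.6 in control Ly6Chi and 624.3 in RBP-J-deficient Ly6Chi monocytes. Control Ly6Clo monocytes thus stood alone as the low library. The ratio of RBP-J-deficient to control FPKM was 8.0 in Ly6Clo and 0.877 in Ly6Chi monocytes. Ratios were compared across genes as the log2 ratio of (FPKM + 1), which understates differences of low genes. On that scale *Ccr2* was 2.98 higher in RBP-J-deficient Ly6Clo monocytes, the 11th highest of 9660 genes that reached an FPKM of 1 in either library. In Ly6Chi monocytes its log2 ratio was -0.19, at percentile 34.9 of the 9771 genes compared. The subset ratio of Ly6Chi over Ly6Clo was 12 in FPKM in control mice and 1.32 in the mutant mice. These values rest on 1 library each. By flow cytometry and qPCR on individual mice, the study reported higher CCR2 in RBP-J-deficient blood Ly6Clo monocytes. It described CCR2 in blood Ly6Chi monocytes as normal.

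In RNA from a sorted population, more cells that contain a transcript and more transcript per cell cannot be told apart. *Ccr2* was set beside the genes that mark Ly6Chi monocytes. The measure was the share of the way from control Ly6Clo to control Ly6Chi FPKM that RBP-J-deficient Ly6Clo monocytes had covered. This share was 63.5% for *Ccr2*. It lay between 2.1% and 4.52% for 7 Ly6Chi marker genes at least 2-fold higher in control Ly6Chi monocytes, with a median of 3.27%. Of the 9 markers used here, *Sirpb1a* and *Itgb7* were not that much higher and were left out. *Ccr2* was not the only gene nearer to control Ly6Chi. *Capg* had an FPKM of 25.6 in control Ly6Clo, 409.9 in RBP-J-deficient Ly6Clo and 684.4 in control Ly6Chi monocytes. *Anxa3* had 8.46, 43.8 and 69.3 in the same order. *Ly6c2*, the gene for the Ly6C antigen used in sorting, had an FPKM of 10.9 in control Ly6Clo, 78.3 in RBP-J-deficient Ly6Clo and 2013 in control Ly6Chi monocytes. *F13a1*, which encodes a coagulation factor chain, had 0.611, 10.7 and 479.8 in the same order. Both markers were higher in the RBP-J-deficient than in the control Ly6Clo library. Their genotype log2 ratios of 2.73 and 2.86 were close to the 2.98 of *Ccr2*, while their shares of the FPKM distance were far smaller. The share is taken on plain FPKM, so it also depends on how far apart the control subsets lie. Ly6Clo monocytes were sorted by their Ly6C level, so the small share of *Ly6c2* is in part set by the sort. What lay behind these differences was not tested. Of the 8 Ly6Chi markers expressed in either Ly6Clo library, 6 were at least 2-fold higher and 1 was at least 2-fold lower in RBP-J-deficient Ly6Clo monocytes, where 9.51% of all genes were higher and 11.7% lower. Among the 6, *F13a1*, *Ly6c1* (0.677 in control, 4.76 in RBP-J-deficient Ly6Clo) and *Fn1* (0.284 and 3.66) reached an FPKM of 1 only in the RBP-J-deficient library. The filter itself favours a higher call for these, so the count is a description only. Of 12 Ly6Clo markers 1 was at least 2-fold higher and 3 were at least 2-fold lower, with a median log2 ratio of -0.27 against 0.04 for all genes. Between the Ly6Chi libraries, 7 of the same 12 were at least 2-fold higher with RBP-J deficiency and 1 was at least 2-fold lower. Of all genes there, 2.76% were higher and 4.78% lower. The median log2 ratio of the 12 was 1.14 there, against 0.01 for all genes. How far this bears on the subset ratios of mutant mice was not tested. *Nr4a1*, a transcription factor needed by Ly6Clo monocytes, was at 618.2 in control and 65.6 in RBP-J-deficient Ly6Clo monocytes, while *Cd36*, a scavenger receptor, was at 425.6 and 944.7. The *Nr4a1* values rest on 1 library each. By flow cytometry and qPCR on individual mice, the study found Nr4a1 similar between genotypes in blood Ly6Clo monocytes.

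**Figure D2:**
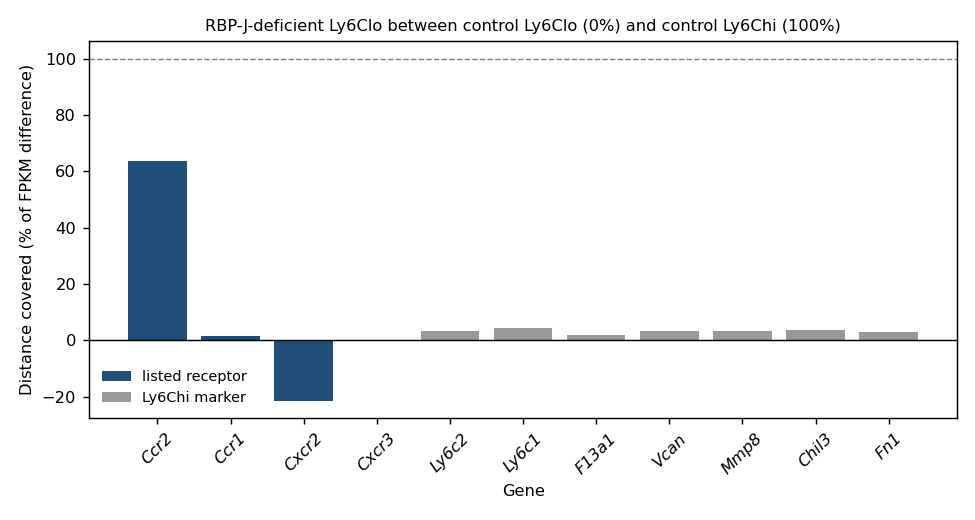
Share in percent of the distance from control Ly6Clo to control Ly6Chi FPKM covered by RBP-J-deficient Ly6Clo monocytes, 1 bar per gene, for receptors at least 2-fold higher in control Ly6Chi monocytes and for Ly6Chi marker genes. The bar of *Ccr2* at 63.5% stands far above the 7 markers, *Ccr1* at 1.66% lies just below the markers, *Cxcr3* is at 0 and *Cxcr2* is at -21.4%, below its control Ly6Clo value. The dashed line marks the control Ly6Chi level.

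*Ccr1*, a receptor for CCL3, CCL5 and related chemokines, followed the subset and not the pattern of *Ccr2*. Its FPKM was 0.445 in control Ly6Clo, 0.881 in RBP-J-deficient Ly6Clo, 26.7 in control Ly6Chi and 18.3 in RBP-J-deficient Ly6Chi monocytes. Both Ly6Clo values were below 1 and both Ly6Chi values were well above it. The log2 ratio of Ly6Chi over Ly6Clo was 4.26 in control mice and 3.36 in mutant mice, the 20th highest of all genes compared in each genotype. *Ccr1* was below an FPKM of 1 in both Ly6Clo libraries and so was not counted in that genotype comparison. Its genotype log2 ratio there was 0.38, and it was -0.10 once the dependence of the ratios on GC content was removed. In Ly6Chi monocytes the genotype log2 ratio was -0.52.

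*Cx3cr1*, the fractalkine receptor, had an FPKM of 88.1 in control Ly6Clo, 81.2 in RBP-J-deficient Ly6Clo, 71.7 in control Ly6Chi and 60.3 in RBP-J-deficient Ly6Chi monocytes. The control library was the higher in each subset, and the Ly6Clo library was the higher in each genotype. All 4 log2 ratios were small, -0.12 and -0.25 for genotype in Ly6Clo and Ly6Chi monocytes, and -0.29 and -0.42 for subset in control and mutant mice. The ratio of *Ccr2* to *Cx3cr1* FPKM was 0.671 in control Ly6Clo, 5.83 in RBP-J-deficient Ly6Clo, 9.92 in control Ly6Chi and 10.4 in RBP-J-deficient Ly6Chi monocytes. The 4 libraries differed far less in *Cx3cr1* than in *Ccr2*.

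*Cxcr4*, the CXCL12 receptor, had an FPKM of 6.46 in control Ly6Clo, 1.74 in RBP-J-deficient Ly6Clo, 2.84 in control Ly6Chi and 2.5 in RBP-J-deficient Ly6Chi monocytes. Control Ly6Clo monocytes were the high library, the reverse of *Ccr2*. The genotype log2 ratio was -1.44 in Ly6Clo monocytes, the 464th lowest of 9660 genes, and -0.13 in Ly6Chi monocytes. Its subset log2 ratio of Ly6Chi over Ly6Clo was -0.96 in control mice and 0.35 in mutant mice. B cells also express *Cxcr4*, and of 8 B cell markers, all found, 4 had an FPKM of at least 1 in either Ly6Clo library. Of these, *Cd79a* was 9.02 in the control and 1.13 in the RBP-J-deficient Ly6Clo library, *Cd22* 12.9 and 0.563, and *Ms4a1*, which encodes CD20, 3.27 and 0.0603. *Cd79b* went the other way, at 41.9 and 100.2. The summed FPKM of the 8 markers was 68.2 in control Ly6Clo, 102.2 in RBP-J-deficient Ly6Clo, 26.3 in control Ly6Chi and 47.2 in RBP-J-deficient Ly6Chi monocytes, and *Pax5*, a defining B cell factor, was at most 0.0560. The part of B cell RNA in the *Cxcr4* difference was not tested.

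*Ccrl2*, an atypical receptor that binds chemerin and does not signal like the other receptors, was the receptor higher in the RBP-J-deficient library of both subsets by similar ratios. Its FPKM was 9.60 in control Ly6Clo, 17.3 in RBP-J-deficient Ly6Clo, 7.47 in control Ly6Chi and 12.9 in RBP-J-deficient Ly6Chi monocytes. Both RBP-J-deficient libraries lay above both control libraries. The log2 ratios of 0.79 and 0.72 stayed below 1, at percentile 84.2 of the genes compared in Ly6Clo and at percentile 92.9 in Ly6Chi monocytes. *Rarres2*, the gene for chemerin, was at most 0.166 in any library.

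*Cxcr2* and *Cxcr3* were higher in Ly6Chi than in Ly6Clo monocytes of both genotypes. *Cxcr2*, the neutrophil receptor for CXCL1 and CXCL2, had an FPKM of 1.97 in control Ly6Clo, 1.29 in RBP-J-deficient Ly6Clo, 5.11 in control Ly6Chi and 3.20 in RBP-J-deficient Ly6Chi monocytes. The summed FPKM of 9 neutrophil markers followed the same order of libraries, at 41.9, 26.3, 378.8 and 166.3, most of it from *Cd177* in the Ly6Chi libraries at 288.6 and 103.2. In the same order of libraries *Csf3r* had 30.4, 6.50, 50.7 and 28.0, *Retnlg* 4.33, 12.2, 35.1 and 24.4, and *Stfa2l1* 0, 1.33, 3.29 and 0.328. Of the granule genes, *Mpo* and *Ltf* were at or near 0 in all 4 libraries, with *Ltf* at most 0.0202. *Camp* was listed at 0 in all but RBP-J-deficient Ly6Chi monocytes, at 5.52, where *Ngp* had 4.87. *Elane* had 1.13 in control Ly6Chi monocytes and was listed at 0 elsewhere. The part of neutrophil RNA in the *Cxcr2* values was not tested.

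*Cxcr3*, the receptor for CXCL9, CXCL10 and CXCL11, was listed at 0 in both Ly6Clo libraries and reached 2.78 in the control and 1.94 in the RBP-J-deficient library of Ly6Chi monocytes. T cells and NK cells are a common source of *Cxcr3*. None of 10 T cell markers reached an FPKM of 1 in any library, and their sum was 0.616 in control Ly6Clo, 0.0868 in RBP-J-deficient Ly6Clo, 0.967 in control Ly6Chi and 2.17 in RBP-J-deficient Ly6Chi monocytes. The sum of 7 NK cell markers was 0.740, 0.182, 2.2 and 2.80 in the same order, most of it from *Gzma* in control Ly6Chi monocytes at 1.71. Both sums were higher in the Ly6Chi than in the Ly6Clo libraries. Of the Ly6Chi libraries, the RBP-J-deficient one had the higher sums. *Gzma*, the NK cell marker that reached an FPKM of 1, was lower there, at 1.41. Their part in the *Cxcr3* values was not tested.

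*Ccr3* and *Ccr7* stayed at or below an FPKM of 1.43 in every library. *Ccr3*, the eotaxin receptor of eosinophils, had an FPKM of 1.12 in control Ly6Clo, 0.721 in RBP-J-deficient Ly6Clo, 0.0472 in control Ly6Chi and 0.635 in RBP-J-deficient Ly6Chi monocytes. The eosinophil genes *Siglec5*, *Prg2* and *Epx* were listed at 0 in every library, and of 5 markers found only *Ear1* passed 1, at 4.15, 27.8, 0.499 and 12.8 in the same order. *Ccr7*, which guides dendritic cells and lymphocytes to lymph nodes, had an FPKM of 1.43 in control Ly6Clo monocytes, was listed at 0 in RBP-J-deficient Ly6Clo, and had 0.864 and 0.961 in control and RBP-J-deficient Ly6Chi monocytes. *Fscn1*, a gene of mature dendritic cells, was listed at 0 in all 4 libraries. As a rough guide to depth, FPKM multiplied by transcript length was set against its 2nd percentile among nonzero genes with a single transcript. The *Ccr7* values were 38.0 to 56.3 times that level where they were above 0, and the *Ccr3* values were 73.3, 42.4, 3.59 and 41.6 times it in the order given for *Ccr3*.

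In Ly6Clo monocytes 7 of the 9 receptors had an FPKM of at least 1 in either library, and *Ccr1* and *Cxcr3* did not. Of these 7, 1 was at least 2-fold higher in RBP-J-deficient monocytes (*Ccr2*), where 9.51% of all 9660 genes were, and 2 were at least 2-fold lower (*Cxcr4* and *Ccr7*), where 11.7% were. *Ccr7* is listed at 0 in the RBP-J-deficient library, so its ratio is set by the pseudocount and is not printed. The median log2 ratio of the 7 receptors was -0.30, against 0.04 for all genes compared, of which the middle 90% lay between -1.42 and 1.27. *Ccr2* was also past the upper fold threshold of 5.7 set in the study, as 0.29% of all genes were. No receptor was past the lower threshold of 0.2, where 0.714% of all genes were. In Ly6Chi monocytes 7 receptors were expressed, without *Ccr3* and *Ccr7*, and 0 were past 2-fold, where 2.76% of 9771 genes were higher and 4.78% lower. None was past the study's thresholds there, which 0.164% of genes passed in each direction. The median of the 7 receptors was -0.25, against 0.01 for all genes.

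**Figure D3:**
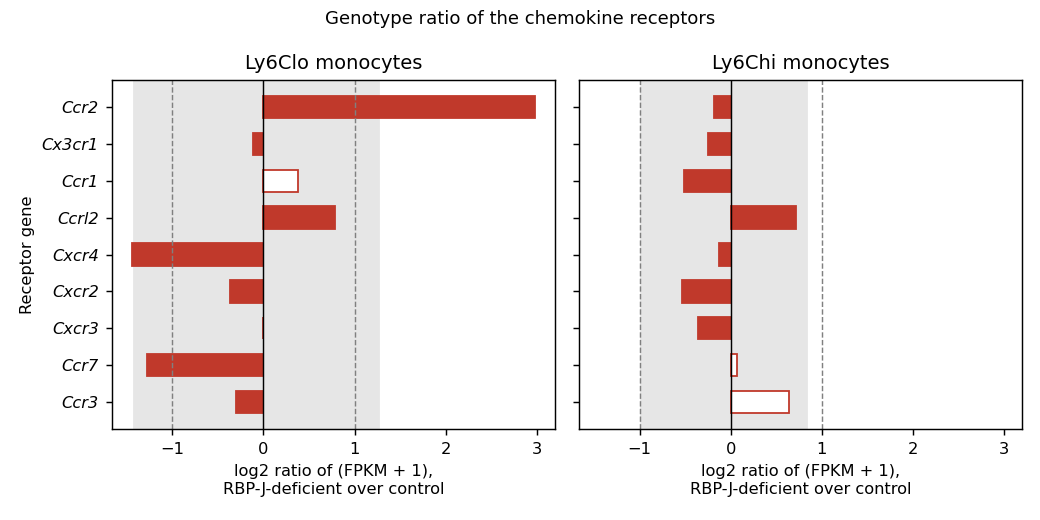
Genotype log2 ratio of (FPKM + 1), with control as the denominator, for each receptor in Ly6Clo (left) and Ly6Chi monocytes (right), 1 library against 1. The grey band holds the middle 90% of all genes compared, dashed lines mark 2-fold, and open bars mark receptors below an FPKM of 1 in both libraries (*Cxcr3* in Ly6Clo is at 0). The *Ccr7* bar in Ly6Clo is against a value listed at 0 and depends on the pseudocount. *Ccr2* at 2.98 and *Cxcr4* at -1.44 in Ly6Clo monocytes lie outside the band, and no receptor does in Ly6Chi monocytes.

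Between subsets of control mice all 9 receptors were compared. *Ccr1*, *Ccr2*, *Cxcr3* and *Cxcr2*, 4 of 9, were at least 2-fold higher in Ly6Chi monocytes, where 8.07% of 9839 genes were. The log2 ratios of *Ccr1*, *Ccr2* and *Cxcr2* were 4.26, 3.57 and 1.04, and *Cxcr3* is listed at 0 in Ly6Clo monocytes, so its ratio is set by the pseudocount. *Ccr3* was 2-fold lower, at -1.02, where 5.42% of genes were. *Ccr1* and *Ccr2* passed the study's upper threshold, as 1.04% of genes did, and 0 receptors passed the lower one, as 0.905% did. Between subsets of RBP-J-deficient mice 7 receptors were expressed. *Ccr1*, at 3.36, and *Cxcr3*, again against a value of 0, were at least 2-fold higher in Ly6Chi monocytes, where 11.1% of 9733 genes were, and 0 receptors were lower, where 8.85% were. *Ccr1* was the receptor past the study's upper threshold, as 0.627% of genes were, with 0 past the lower one, as 0.452% were. *Cxcr2* had 1.04 in control mice and 0.87 in mutant mice, close values on either side of 2-fold. The genotype and subset comparisons share libraries, so these ratios are not independent of one another.

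**Figure D4:**
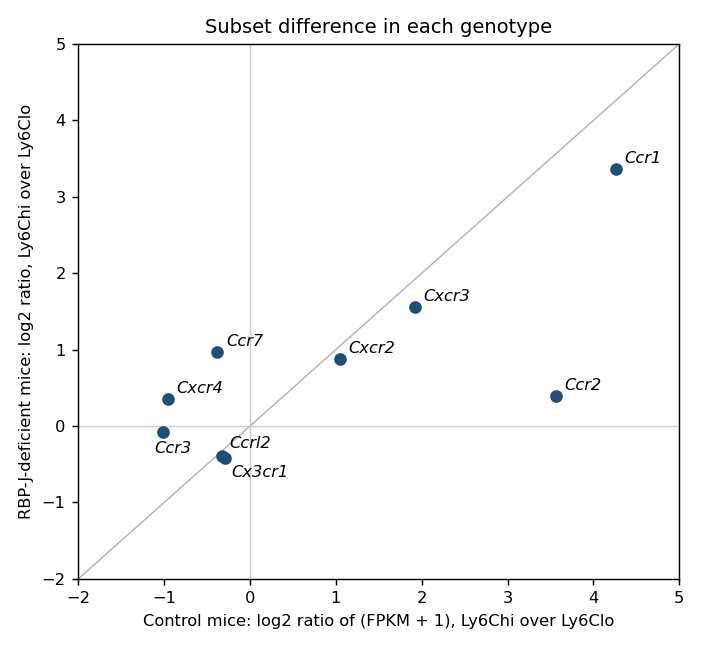
Subset log2 ratio of (FPKM + 1), Ly6Chi over Ly6Clo, in control mice (horizontal axis) against RBP-J-deficient mice (vertical axis), 1 point per receptor, with a diagonal of equal ratios. *Ccr1* lies high on both axes, *Ccr2* lies far below the diagonal at 3.57 and 0.40, and the points of *Cxcr3* and *Ccr7* rest on Ly6Clo values listed at 0 and depend on the pseudocount.

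*Ccr2* lies in a cluster of receptor genes on mouse chromosome 9 of GRCm38, at chr9:124101950-124113557 on the plus strand. *Ccr1* (chr9:123962124-123968692, minus strand) starts at -133.3 kb from its start and *Ccr3* (chr9:124021972-124031689, plus strand) at -79.98 kb. *Ccr1* and *Ccr3* in the same cluster had 0.38 and -0.30 in Ly6Clo monocytes, from FPKM values of at most 1.12. *Ccr1l1* was at 0.271 in control Ly6Clo monocytes and listed at 0 in the other libraries.

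The other receptors lie apart from this cluster. *Cx3cr1* (deposited position chr9:120048682-120068296, minus strand) and *Ccrl2* (chr9:111054486-111057519, minus strand) are elsewhere on chromosome 9. *Cxcr2* (chr1:74153989-74161246, plus strand) and *Cxcr4* (chr1:128588199-128592293, minus strand) are on chromosome 1. *Ccr7* is at chr11:99144196-99155077 on the minus strand and *Cxcr3* at chrX:101731535-101734269 on the minus strand.

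RBP-J binds DNA at sites with the core TGGGAA, often as GTGGGAA, and the RefSeq promoter windows of GRCm38.p6, from 250 bases before to 50 after each start, were searched for both on both strands. Every GTGGGAA match is also a TGGGAA match. Of the 9 receptors, 8 had a window, and TGGGAA was found in 4 of them (*Ccr3*, *Cx3cr1*, *Cxcr2* and *Cxcr3*), where 25.6% of all 32851 windows hold it. GTGGGAA was found in *Ccr3*, where 6.38% of windows hold it. No match was found in the windows of *Ccr1*, *Ccr2*, *Ccrl2* and *Cxcr4*. The matches upstream of the starts are shown because RBP-J is the deleted factor. Each is written 5′ to 3′ along the gene's strand with the core in capitals, which reads TTCCCA where it lies on the opposite strand.
Ccr3, position -129, chr9:124021830-124021859: gtcaatgattatTGGGAAgttgttagccat
Ccr3, position -174, chr9:124021785-124021814: cttaagaggaaaTTCCCAcattgtttttcc
Cx3cr1, position -114, chr9:120068393-120068422: gcggtcagctggTTCCCAgcctggagcgtt
Cxcr2, position -220, chr1:74153762-74153791: ggaggcataggcTGGGAAggaagctgacct
These letters are a description of the windows and do not show a bound site, and sites outside the windows were not searched.

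None of 14 further chemokine receptors examined here, all found in the table, reached an FPKM of 1 in any library. *Ccr4*, *Cxcr1* and *Ackr3* were listed at 0 in all 4 libraries. The remaining receptors, among them the lymphocyte receptors *Ccr6* and *Cxcr5* and the atypical receptor *Ackr1*, were between 0 and 0.970.

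The ligand list held 23 genes, chemokines that bind the 9 receptors and the chemerin gene *Rarres2*. Of these 22 were found. Among the 22, 8 were listed at 0 in all libraries, including the CX3CR1 ligand *Cx3cl1* and the CXCR4 ligand *Cxcl12*. In Ly6Clo monocytes 8 ligands were expressed, and 4 were at least 2-fold higher in RBP-J-deficient monocytes, with 0 lower, against 9.51% and 11.7% of all genes. Their median log2 ratio was 0.81, against 0.04 for all genes. *Ccl6*, a CCR1 ligand, was the most abundant, with an FPKM of 845.8 in control Ly6Clo, 1729 in RBP-J-deficient Ly6Clo, 1542 in control Ly6Chi and 1480 in RBP-J-deficient Ly6Chi monocytes. The CCR2 ligand *Ccl2* had 0.421, 1.94, 17.2 and 15.0 in the same order, so RBP-J-deficient Ly6Clo monocytes lay above control Ly6Clo and far below both Ly6Chi libraries. *Cxcl10* behaved alike at 0.723, 2.57, 16.8 and 16.1, and *Cxcl2*, the fourth ligand past 2-fold, had 0, 1.23, 0.0581 and 0.948. *Ccl2*, *Cxcl10* and *Cxcl2* were below an FPKM of 1 in control Ly6Clo monocytes and were counted only through the RBP-J-deficient library. For these genes the filter itself favours a higher call, so the count of 4 and the median are descriptions only. The *Cxcl2* ratio is against a value of 0 and is set by the pseudocount. The log2 ratios of *Ccl6*, *Ccl2* and *Cxcl10* in Ly6Clo monocytes were 1.03 to 1.05, just past 2-fold, and under the GC correction 0 of the 8 stayed past it. In Ly6Chi monocytes 0 of 8 expressed ligands were past 2-fold, where 2.76% of all genes were higher and 4.78% lower, with a median of -0.04 against 0.01, and after rescaling to TPM 2 of 10 were higher and 1 lower, against 2.95% and 7.23% of all genes. Between subsets, 5 of 7 ligands were at least 2-fold higher in Ly6Chi monocytes of control mice, where 8.07% of all genes were, and 5 of 9 in RBP-J-deficient mice, where 11.1% were. In either genotype 0 ligands were lower, against 5.42% and 8.85% of all genes. Here too some higher ligands reached an FPKM of 1 only in the Ly6Chi library. These were *Ccl2* and *Cxcl10* in control mice and *Cxcl9*, at 0.452 in Ly6Clo and 2.27 in Ly6Chi monocytes, in RBP-J-deficient mice.

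All 24 genes of receptor signalling and desensitisation were expressed. In Ly6Clo monocytes 1 was at least 2-fold higher in RBP-J-deficient monocytes and 4 were at least 2-fold lower, against 9.51% and 11.7% of all genes, and the median of the 24 was -0.45 against 0.04. Both counts lie near these shares and so are not a result about the list. The genes past 2-fold are given by their values. *Rgs14*, which limits Gi signalling, had 26.2 FPKM in the control and 8.88 in the RBP-J-deficient Ly6Clo library. *Dock2*, an activator of Rac needed for leukocyte migration, had 88.6 and 36.3. *Prex1*, another Rac activator, had 10.4 and 3.57. *Plcb2*, a phospholipase downstream of G proteins, had 3.70 and 1.08. *Rgs18* was the gene higher, with 31.1 and 70.0. The remaining 19 genes lay within 2-fold, among them the G protein subunits *Gnai2*, at 106.6 and 88.0, and *Gnb1*, at 742.5 and 1456. In Ly6Chi monocytes 0 of the 24 were past 2-fold, with a median of -0.06 against 0.01 for all genes. When FPKM was rescaled to the same sum per library, 0 were higher and 8 lower in Ly6Clo monocytes, against 5.42% and 18.6% of all genes. After the GC correction 0 were higher and 2 lower, against 8.13% and 10.6%. Between subsets 0 were higher and 2 lower in Ly6Chi monocytes of control mice, against 8.07% and 5.42% of all genes, and 1 was higher and 2 lower in mutant mice, against 11.1% and 8.85%.

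The genes with profiles most like a receptor were taken as the 5 at the smallest Euclidean distance in log2(FPKM + 1), centred over the 4 libraries, among the 4837 genes whose mean FPKM was 10 or more. For *Ccr2* these were *Anxa3*, *AI839979*, *Rnd3*, *Trem2* and *Capg*, at distances of 0.63 to 1.03. *Anxa3* had an FPKM of 8.46 in control Ly6Clo, 43.8 in RBP-J-deficient Ly6Clo, 69.3 in control Ly6Chi and 56.6 in RBP-J-deficient Ly6Chi monocytes, and *Capg*, which encodes an actin-capping protein, had 25.6, 409.9, 684.4 and 701.1. For *Ccr1* they were *Smim5*, *Ecm1*, *Fgl2*, *Chil3* and *Lilra6*, at 0.52 to 0.98, and *Chil3*, a chitinase-like protein of Ly6Chi monocytes, had 37.0, 79.9, 1153 and 1257. For *Cxcr4* they were *Elovl5*, *Arhgef10l*, *Sh2d3c*, *Ctsb* and *Rassf5*, at 0.15 to 0.19, and *Ctsb*, the protease cathepsin B, had 1046, 352.9, 535.0 and 539.4. For *Cx3cr1* they were *Mtpap*, *Zfp207*, *Impa1*, *Herc4* and *Gps2*, at 0.04 to 0.06. With 4 points per gene these likenesses are a description only, and the number of genes close to a profile depends on how common that profile is.

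The genotype ratios also moved with base composition. Across genes Spearman's rho between transcript GC content and the log2 ratio was -0.35 in Ly6Clo and -0.28 in Ly6Chi monocytes. *Ccr2* transcripts have 39.4% GC, *Ccr1* and *Ccr3* 39.1% each, *Cxcr4* 46.1% and *Cx3cr1* 50.3%. With the GC trend subtracted, an alternative added after seeing the data, the Ly6Clo genotype log2 ratio of *Ccr2* was 2.507, just below the study's upper threshold of 2.511, and that of *Cxcr4* was -1.72. Globin genes of red cells differed between libraries without a common direction. *Hba-a2* had an FPKM of 1171 in control Ly6Clo, 89.4 in RBP-J-deficient Ly6Clo, 113.2 in control Ly6Chi and 182.6 in RBP-J-deficient Ly6Chi monocytes. *Hbb-bs* went the other way in Ly6Clo monocytes, at 11.1, 54.6, 32.7 and 59.2 in the same order. *Alas2*, an erythroid gene that is not a globin, ranked the libraries as *Hba-a2* did, at 6.66, 1.60, 2.96 and 4.44. Their part in the receptor differences was not tested.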

How the data were processed

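RNA-seq of 4 sorted monocyte populations was analysed, 1 library per group. The authors deposited FPKM values for each pair of libraries. Per the labels, the submitters' processing notes name CASAVA 1.8, TopHat2 2.1.0, Cufflinks 2.2.1 and mm10, without giving their roles. The p-values, q-values and fold changes that the authors deposited for single-library comparisons were not used. From the deposited FPKM, rows sharing a symbol were summed and the log2 ratio of (FPKM + 1) was computed. A gene was compared where its FPKM was at least 1 in either library. Thresholds were 2-fold and, after the study's methods, 5.7 and 0.2, without its p-value. Values of 1 library differed between pairs in 19 cases, none for a receptor, and the larger was used.

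All 9 receptors are named. Of the other lists, genes were named by size of ratio, by expression in every library or as partners of a receptor, and the 5 nearest profiles for 4 receptors. The receptors, lists and alternatives were chosen with earlier results of these data known. Because library depth is unknown, the precision of single values could not be given. The GC correction subtracted the lowess trend (fraction 0.3, 3 iterations) of the log2 ratio against GC content of GENCODE M21 transcripts, known for 94.9% to 95.0% of expressed genes, fitted on those with a mean FPKM of at least 5. Procedures were tested on simulated data. Other alternatives were pseudocounts of 0.1 and 5, rescaling to TPM, median centring, upper quartile scaling and an FPKM of at least 1 in both libraries. Computations ran in Python 3.11.15 with pandas 2.3.3, numpy 2.4.6, statsmodels 0.14.6 for lowess and scipy 1.17.1. The promoter windows and their sequences are those of RefSeq. Some genes of the lists are not reported here.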

Additional observations from a re-analysis of the deposited data

Results flagged for a closer look

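In 3 receptors with a value above 0 in every library RBP-J deficiency went with a higher value in one subset and a lower value in the other, so the genotype ratio had opposite signs. Each difference rests on 1 library per group and was not tested. The genotype log2 ratio of *Ccr2* was 2.98 in Ly6Clo and -0.19 in Ly6Chi monocytes, a difference of 3.17. *Ccr1* had 0.38 and -0.52, a difference of 0.90, with both Ly6Clo values below an FPKM of 1 and the Ly6Clo sign turned to -0.10 by the GC correction. *Ccr3* had -0.30 and 0.64, a difference of -0.95, from values of at most 1.12. *Cxcr4*, with -1.44 and -0.13, differed by -1.31 between subsets without a change of sign.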

How the results depend on the processing

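Over 7 alternatives per comparison, 93 of 112 recomputed counts of receptors stayed within 1.5 times the reported count and 19 did not. In Ly6Clo monocytes the 2 receptors at least 2-fold lower in RBP-J-deficient mice became 0 with a pseudocount of 5 and 1 where both libraries had to reach an FPKM of 1. There the 1 receptor past the study's upper threshold became 0 after the GC correction, chosen after seeing the data, and the 0 past its lower threshold became 1 with a pseudocount of 0.1. Between subsets of control mice the 4 receptors higher in Ly6Chi monocytes became 2 with a pseudocount of 5 and 2 with both libraries at 1. The 1 lower became 2 with a pseudocount of 0.1 and 2 after rescaling to TPM. It became 0 with a pseudocount of 5, 0 with both libraries at 1 and 0 after the GC correction. The 2 past the upper threshold became 1 with both libraries at 1, and the 0 past the lower became 1 with a pseudocount of 0.1. Between subsets of RBP-J-deficient mice the 2 receptors higher became 1 with a pseudocount of 5, 4 after rescaling to TPM and 0 with both libraries at 1, and the 1 past the upper threshold became 2 at a pseudocount of 0.1, 0 at 5 and 0 with both libraries at 1. The cause of these shifts was not tested, except that the filter on both libraries leaves fewer receptors. The *Ccr2* log2 ratio in Ly6Clo monocytes lay between 2.51 and 3.0 under all alternatives run, that of *Cxcr4* between -1.83 and -0.77, and that of *Ccrl2* between 0.51 and 0.84. Signs changed for *Ccr1* in Ly6Clo monocytes (GC correction), for *Ccr3* between subsets of RBP-J-deficient mice (TPM, GC correction), and for *Cxcr3* in Ly6Clo monocytes, listed at 0 in both. Rescaling to TPM moved the median of all genes by -0.26 in the Ly6Clo genotype comparison and by 0.19 between subsets of RBP-J-deficient mice, and upper quartile scaling moved them by -0.16 and 0.13. Of all genes past 2-fold in the Ly6Clo comparison, 44.8% were higher in RBP-J-deficient monocytes as deposited, 22.6% after rescaling to TPM and 29.9% after upper quartile scaling. Between subsets of RBP-J-deficient mice 55.7%, 71.5% and 67.0% were higher in Ly6Chi monocytes. No paired analysis was possible because each group holds 1 library, and no library could be left out.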
